A study of Rattus norvegicus and Mus musculus with 61 samples.

Results

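Rat parieto-occipital cortex was compared between 3 injury and 2 sham arrays 24 h after surgery, which are 5 of the 39 rat arrays and of the 61 arrays of the series. Arrays were assigned to these groups from their titles and tissue labels, and each array held RNA of 1 rat. The injured rats were male Sprague-Dawley animals of about 400 g (± 25 g) that received a fluid percussion pulse of 2.5 atm under sodium pentobarbital anaesthesia, and the sham rats were of the same strain, sex and weight and went through surgery without the pulse. From every animal a 7 mm disk of cortex centred on the impact site was taken, so the injured disks contained the contusion. No transgene or drug treatment other than the anaesthetic is named in the labels of either group. The sample titles of this time carry an unexplained letter f in both groups.

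Fluid percussion drives a pulse of saline against the dura and produces a cortical contusion with surrounding diffuse damage. In the days after such an injury, neutrophils and then monocytes enter the tissue, microglia change state, astrocytes become reactive and switch on intermediate filament, protease inhibitor and acute phase genes, and stressed cells induce heat shock proteins and heme oxygenase. Neuronal transcripts can fall where neurons die or lower their synaptic gene expression. In bulk tissue such as these disks, fewer cells of a type and less RNA per cell cannot be told apart.

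The deposited values were linear intensities in arbitrary units on a common scale. The median intensity was 399.6 to 409 in the injury arrays and 398 to 406 in the sham arrays, while the other 34 rat arrays had 230.3 to 396. Probe sets of the opposite strand, which serve as controls, had mean log2 intensities of 7.64 to 7.94 in the injury arrays and 7.56 to 8.05 in the sham arrays, so the groups overlapped. Of the other rat arrays, 17 lay below, 9 within and 8 above the range of the 5 arrays, and injury was therefore set only against the sham arrays of the same time. The log2 ratio of 3′ to 5′ actin probe sets, a sign of RNA integrity, was 0.19 to 0.48 in the injury arrays and -0.05 to -0.01 in the sham arrays. The same ratio for GAPDH was -0.55 to 0.12 in the injury arrays and -0.64 to -0.56 in the sham arrays. Neither ratio overlapped between the groups, this difference runs alongside every gene group described here, and its part in the results was not tested. Over all genes tested, the arrays correlated at 0.922 to 0.934 within injury, 0.952 within sham and 0.897 to 0.940 between injury and sham, with injury replicate 2 the closest to sham replicate 1.

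Brain tissue content was checked with neuronal and myelin markers, which cannot tell cortex from other brain regions. Transcripts for the synaptic membrane protein SNAP-25 (Snap25), the myelin protein MBP (Mbp) and the peptide hormone somatostatin (Sst) were bright in all 5 arrays, with intensities from 3135 to 6203, from 9653 to 20930 and from 6117 to 10407. The choroid plexus list of 7 tested genes had a summed intensity of 4799 to 20811 in the injury arrays and 4701 to 25084 in the sham arrays, so both groups held a disk with much and a disk with little of this signal. Gfap, Mt1 and Cd68, usual markers of reactive astrocytes, stress and macrophages, were not analysed here, since no probe set carried them as its 1 symbol.

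Of 4091 genes tested, 11 were called higher in injured cortex (0.269%) and 0 were called lower (0%) at a Benjamini-Hochberg adjusted p under 0.05 with limma. Without adjustment, 199 genes had p under 0.05, of which 124 were higher and 75 lower in injury. The log2 difference had a median of 0.0023 over all genes and a standard deviation of 0.54. Every injury array was above both sham arrays for 670 genes (16.4%) and below both for 643 genes (15.7%). These shares stand as the background for the gene groups that follow. The count of calls depended on single arrays, with 20 genes without injury replicate 2, 7 without injury replicate 3, 5 without sham replicate 1 and 5 without sham replicate 2. It was 34 without the 4 rat arrays of earlier times that stood apart from the rest. The arrays of 24 h also correlated less with the rat arrays than most did. Their median correlation was 0.821 to 0.833 in injury and 0.828 to 0.843 in sham, against 0.537 to 0.931 in the other rat arrays.

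**Figure D1:**
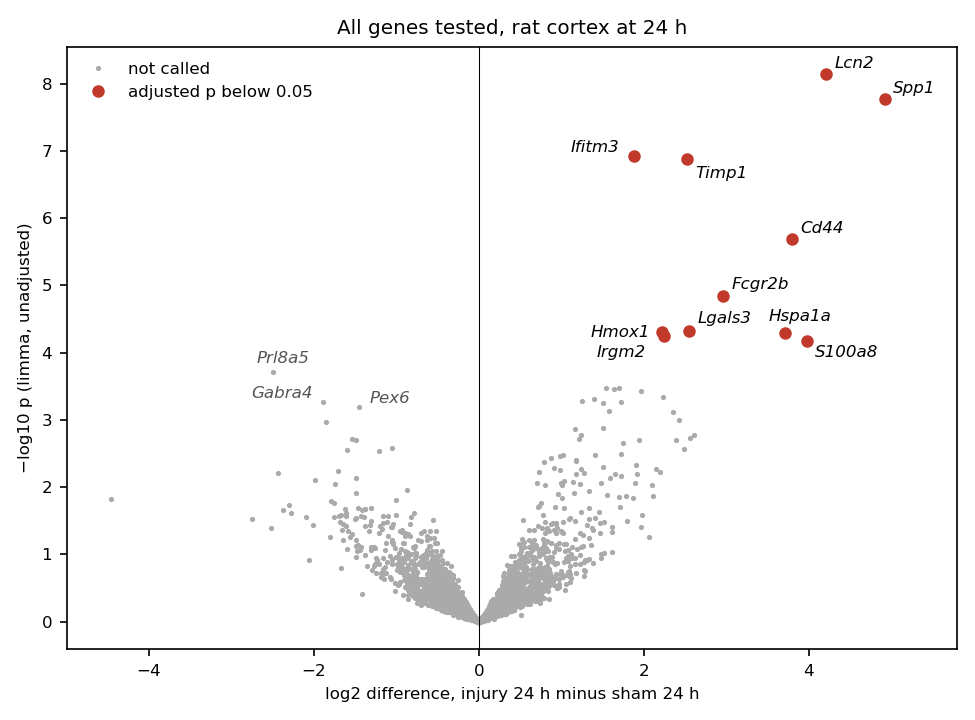
The log2 difference of injury minus sham at 24 h (x axis) is plotted against the −log10 unadjusted p from limma (y axis) for each of 4091 genes. The 11 genes with an adjusted p under 0.05, in red, all lie to the right of 0, and the lower genes of smallest p, among them Prl8a5, are not called.

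Genes of activated phagocytes and of the extracellular matrix were among the rises. Osteopontin (Spp1), a secreted phosphoprotein and cytokine of activated macrophages and microglia, had intensities of 6042, 2631 and 5697 in the injury arrays against 153 and 143 in the sham arrays. All 3 injured rats stood far above both sham rats, which lay close together. The log2 difference was 4.92 ± 0.66 (SE, adjusted p = 3.46e-05), or 30.3-fold. One of its receptors, CD44 (Cd44), a hyaluronan-binding adhesion molecule, had 730.4, 450.2 and 1232 in the injury arrays against 58.5 and 48.6 in the sham arrays. The groups were again well apart, with a log2 difference of 3.79 ± 0.66 (adjusted p = 0.00166). Another Cd44 probe set overlapped between the groups (-0.63), and when probe sets were averaged per gene the Cd44 difference was 1.58 with adjusted p = 0.476. Tissue inhibitor of metalloproteinases 1 (Timp1), which blocks matrix metalloproteinases, had 7173, 3994 and 6182 in the injury arrays against 828 and 1145 in the sham arrays. Timp1 was thus among the brightest of the called genes in injured cortex and differed by 2.53 ± 0.38 (adjusted p = 0.000136).

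Acute phase and neutrophil-associated genes formed the next group. Lipocalin 2 (Lcn2), which binds bacterial siderophores and is made by neutrophils and reactive astrocytes, had 2633, 1282 and 2738 in the injury arrays against 125 and 103 in the sham arrays. It had the smallest adjusted p of all genes (2.98e-05), with a log2 difference of 4.21 ± 0.54 or 18.5-fold. S100a8, the calgranulin that pairs with S100a9 in neutrophils and monocytes, had 482, 189 and 1418 in the injury arrays against 6.69 and 14.3 in the sham arrays. Both sham values lay under the floor of 32.1 set before the log2 step, so the difference is a lower bound of at least 15.8-fold (at least 3.98 ± 0.87 in log2, adjusted p = 0.0247). Its partner S100a9 had 683, 405 and 915 in the injury arrays against 72.1 and 159 in the sham arrays. S100a9 did not overlap between the groups, yet its difference of 2.56 ± 0.76 missed the threshold (adjusted p = 0.222).

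The microglial and macrophage genes called were a receptor and a lectin. The low-affinity IgG receptor gene Fcgr2b had 782, 502 and 1162 in the injury arrays against 44.0 and 222 in the sham arrays. The sham rats differed more from each other, as a ratio, than the dimmest injured rat did from the brighter sham rat. The log2 difference was 2.96 ± 0.58 (adjusted p = 0.00967), and the call was lost without injury replicate 3 (adjusted p = 0.0941) and without sham replicate 1 (adjusted p = 0.99992). Galectin-3 (Lgals3), a β-galactoside-binding lectin of phagocytes, had 1989.6, 1729.5 and 1706 in the injury arrays against 285 and 332 in the sham arrays. Its injured rats varied little, and the difference was 2.55 ± 0.54 (adjusted p = 0.0232).

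Stress response genes called were an inducible chaperone and the heme-degrading enzyme. Hspa1a, which encodes inducible HSP70, had 7904, 531 and 3277 in the injury arrays against 195 and 169.8 in the sham arrays. The 3 injured rats spread over more than a decade of intensity, all of them above the sham rats, and the difference was 3.72 ± 0.80 (adjusted p = 0.0232). Its near-identical neighbour Hspa1b can hybridise to the same probes, so the signal may be a sum over both copies. Heme oxygenase 1 (Hmox1), which breaks down heme and is induced by blood in tissue, had 4245, 2461 and 4316 in the injury arrays against 741 and 791 in the sham arrays. The difference was 2.22 ± 0.47 (adjusted p = 0.0232), and a dimmer Hmox1 probe set was also higher in every injury array (1.87). The Hmox1 call was lost when probe sets were averaged per gene.

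The remaining called genes, Ifitm3 and Irgm2, are interferon-induced. Ifitm3, a membrane protein that restricts virus entry, had 2400.3, 2408 and 3291 in the injury arrays against 666 and 793 in the sham arrays. It was the smallest of the called differences and had the smallest standard error, at 1.88 ± 0.28 (adjusted p = 0.000136). Probes for Ifitm3 can also match its close family members. Irgm2, an immunity-related GTPase studied mainly in mouse, had 394, 280.4 and 598 in the injury arrays against 107 and 68.5 in the sham arrays. All 3 injured rats were above both sham rats, with a difference of 2.24 ± 0.48 (adjusted p = 0.0233).

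The promoters of these 2 genes are shown because they are the called genes in whose RefSeq promoter (GRCr8, 250 bases before the start of the gene) the letters of an interferon-stimulated response element were found (GAAA, any 2 bases and GAAA again, on either strand). The matched letters are in capitals, 44 to 35 bases before the start in Ifitm3 (chr1:205541759-205541842, minus strand) and 102 to 93 bases before the start in Irgm2 (chr10:42889828-42889917, plus strand).
Ifitm3: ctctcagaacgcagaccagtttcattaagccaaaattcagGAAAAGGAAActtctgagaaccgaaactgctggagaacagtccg
Irgm2: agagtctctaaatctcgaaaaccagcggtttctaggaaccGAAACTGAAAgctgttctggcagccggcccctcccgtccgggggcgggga
Promoters were found for 7 of the 11 called genes, and 2 of these 7 hold this motif, against 3.41% of 33469 rat promoters. The same 2 promoters hold the STAT motif TTCNNNGAA, which is in 7.67% of all promoters, next to the first motif and without overlapping it. The AP-1 motif TGANTCA was in 1 of the 7 (Ifitm3) and in 6.34% of all promoters. The NF-kB motif (GGG, any 2 bases, TTTCC) was in 0 of the 7 and in 1.3% of all promoters. The heat shock motif (GAA, TTC and GAA with any 2 bases between each) was in 0 of the 7 and in 0.663% of all promoters. A match is a description of these letters only.

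**Figure D2:**
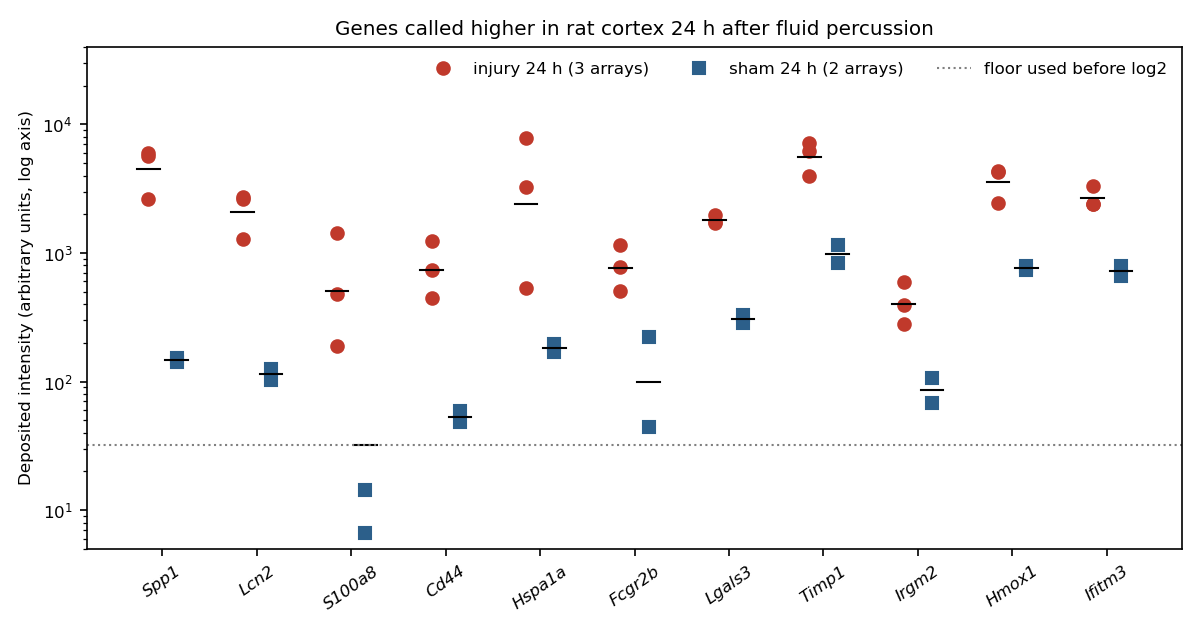
Deposited intensity (arbitrary units, log axis) of the 11 genes called at 24 h is plotted for each injury array (red circles) and each sham array (blue squares), with horizontal bars at the mean of log2 values and a dotted line at the floor of 32.1. Every red circle lies above both blue squares of its gene, from Spp1 (2631 to 6042 against 143 to 153) to Ifitm3 (2400.3 to 3291 against 666 to 793).

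Injury replicate 2 had the lowest intensity of the injured rats for 9 of the 11 called genes, and for 361 of the 670 genes (53.9%) that were above both sham arrays in every injury array. Calls for Spp1, Lcn2, Timp1 and Ifitm3 held in all 15 alternatives tried, with adjusted p up to 0.00927, 0.0154, 0.0412 and 0.0381. The other 7 genes each lost the call in 2 (Cd44) to 7 (S100a8) of them. With only the compared groups in the fit, 11 genes were called, of which 7 were shared with the main fit. S100a8, Hspa1a, Fcgr2b and Irgm2 lost the call there, and Plek, Rps27l, Vim and Tspo gained it. S100a8, Hspa1a, Lgals3, Irgm2 and Hmox1 each lost it without injury replicate 1, injury replicate 3, sham replicate 1 or sham replicate 2, with adjusted p from 0.0874 (Lgals3) to 0.584 (Irgm2) in those fits. Cd44 lost it without sham replicate 2 (adjusted p = 0.0816).

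No gene was called lower in the main fit, and the genes of smallest p in that direction are given as values only. Of the 15 alternatives, Prl8a5 was called lower in 6, Gabra4 in 3, Pex6 and Alb in 2 each, and Entpd2 and Septin4 in 1 each. Prl8a5, a placental prolactin-family gene, had 402, 219 and 31.7 in the injury arrays against 706 and 899 in the sham arrays (log2 difference -2.50 ± 0.59, adjusted p = 0.0655). The injured rats spread widely, with replicate 3 under the floor, and the gene's other probe set overlapped between the groups. At 8 h and 72 h the same Prl8a5 probe set had 1.43 to 48.1 over the injury and sham arrays, far under the 24 h sham values. Gabra4, which encodes the α4 subunit of GABA-A receptors, had 105, 76.6 and 291 in the injury arrays against 447 and 545 in the sham arrays. All injured rats were below both sham rats, with a difference of -1.90 ± 0.49 (adjusted p = 0.103). The peroxisomal ATPase gene Pex6 (-1.45, adjusted p = 0.113), the albumin gene Alb (-1.85, adjusted p = 0.163), the ectonucleotidase gene Entpd2 (-1.53, adjusted p = 0.222) and the septin gene Septin4 (-1.49, adjusted p = 0.222) were likewise below both sham arrays in every injury array. The 2 other Alb probe sets that passed the filter had differences of 0.29 and 0.21.

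Reactive astrocyte markers were mostly higher. Of 17 tested, 3 were called higher (Lcn2, Cd44 and Timp1), 13 were above both sham arrays in every injury array (76.5%, beside 16.4% of all genes) and 1 was below (S100b), with a median log2 difference of 1.23 (0.81 with no filter on dim probe sets). The summed intensity of the list was 46234 to 64328 in the injury arrays and 35308 to 42792 in the sham arrays. Vimentin (Vim), an intermediate filament protein of reactive astrocytes and of vessels, had 3999.55, 3763 and 4421 in the injury arrays against 1018.5 and 1476 in the sham arrays. The injured rats were close to each other and far above the sham rats, but the difference of 1.72 had adjusted p = 0.103 and was called in 5 of the 15 alternatives. The small heat shock protein gene Hspb1 had 9023, 5503 and 5560.1 in the injury arrays against 1957 and 2571 in the sham arrays, with a difference of 1.54 (adjusted p = 0.0937). The protease inhibitor gene Serpina3n (1.96, adjusted p = 0.0937), the lens crystallin and chaperone gene Cryab (1.50), the iron oxidase ceruloplasmin gene Cp (1.26), the annexin partner gene S100a10 (1.23), the galectin gene Lgals1 (0.81) and the filament gene Nes (0.58) also lay above both sham arrays without passing the test. The extracellular glycoprotein gene Tnc had 0.42 with no overlap. A2m, Fabp7 and Clu overlapped between the groups, at -0.10, -0.11 and -0.26.

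Markers of homeostatic astrocytes ran the other way in part. Of 15 tested, 0 were called, 6 were below both sham arrays in every injury array (40%, beside 15.7% of all genes) and 0 were above, with a median of -0.29. The median was -0.53 with probe sets averaged per gene and -0.18 without injury replicate 3. The lipid phosphatase gene Plpp3 (-1.05), the glycine transporter gene Slc6a9 (-1.17) and the potassium channel gene Kcnj10 (-1.33) were below without passing the test. The glutamate transporter gene Slc1a2 (-0.04), the water channel gene Aqp4 (0.06) and the glutamine synthetase gene Glul (0.16) overlapped.

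Microglia and macrophage markers held 2 calls among 13 tested (Fcgr2b and Lgals3), and 9 were above both sham arrays in every injury array (69.2%) and 0 below, with a median of 0.82. The median was 0.66 with no filter on dim probe sets and 0.59 without sham replicate 1. Itgam, Csf1r and Cd36 were on the array but did not pass that filter. Summed intensity was 13029 to 16144 in the injury arrays and 10645 to 11605 in the sham arrays. The lysozyme gene Lyz2 had 2265, 1527 and 3481 in the injury arrays against 893 and 854 in the sham arrays, with a difference of 1.39 and adjusted p = 0.103. The endotoxin receptor genes Tlr4 (1.61) and Cd14 (0.67), the tetraspanin gene Cd53 (0.97) and the invariant chain gene Cd74 (0.82) did not overlap and did not pass the test. The general leukocyte gene Ptprc (-0.02) and the microglia genes Aif1 (-0.08), Cx3cr1 (-0.18) and Ctss (-0.33) overlapped between the groups.

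Neutrophil markers had 5 tested members, 2 of them called (Lcn2 and S100a8), with a median of 2.56. With no filter on dim probe sets the median was 1.28. The summed intensity was 2358 to 5333 in the injury arrays and 529.8 to 679.5 in the sham arrays. Lcn2 is also in the reactive astrocyte list. The chemokine receptor gene Cxcr2 (-0.69) and the defensin gene Defa5 (-0.23) overlapped. Of 9 lymphocyte markers, 0 were called, 1 was above both sham arrays, and the median was -0.11, turning to 0.06 without injury replicate 2 and to 0.14 without sham replicate 2. The part of these markers in the other differences was not tested.

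**Figure D3:**
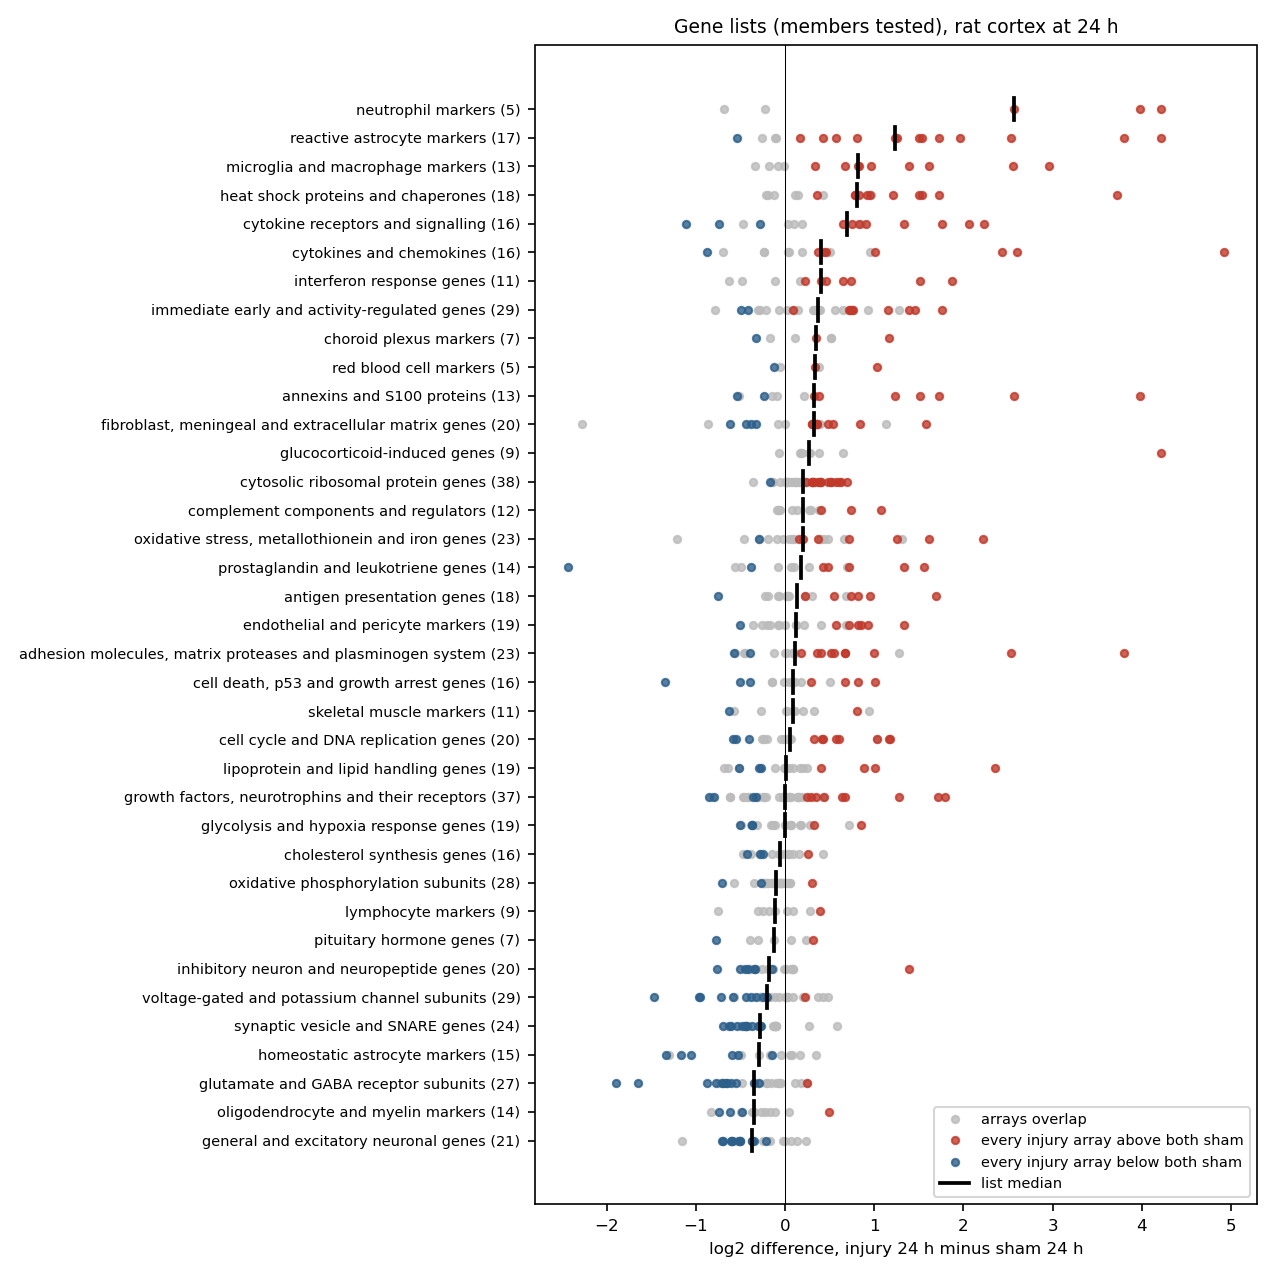
For each of 37 gene lists (number of tested members in brackets), the log2 difference of injury minus sham at 24 h (x axis) is shown per gene, in red where every injury array was above both sham arrays, in blue where every one was below, and in grey where they overlapped, with the list median as a black bar. Medians run from 2.56 for neutrophil markers and 1.23 for reactive astrocyte markers to -0.37 for general and excitatory neuronal genes.

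Among cytokines and chemokines, Spp1 was the only gene called of 16 tested. The list had 7 members above both sham arrays in every injury array (43.75%) and 1 below (6.25%). Its median was 0.40, which was 0.09 without sham replicate 1 and 0.21 with no filter. The monocyte attractant gene Ccl2 had 2716, 1590.1 and 6113 in the injury arrays against 527 and 454 in the sham arrays. Its groups were well separated, with a difference of 2.61 and adjusted p = 0.222. The chemokine gene Ccl3 (2.43, adjusted p = 0.158) was dim, with 131, 128 and 539 in the injury arrays against 46.3 and 20.1 in the sham arrays. The inflammasome product genes Il18 (1.01) and Il1b (0.37) and the chemokine gene Cxcl10 (0.46) were above both sham arrays, while Il6 (0.95), Cxcl2 (0.50) and Ccl4 (0.19) overlapped. Csf1, the growth factor of microglia, was below both sham arrays at -0.87.

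Cytokine receptors and signalling genes had 0 calls of 16, with 8 above both sham arrays in every injury array (50%), 3 below (18.75%), and a median of 0.70. The TNF receptor gene Tnfrsf1a had 808, 746 and 922 in the injury arrays against 123 and 250.4 in the sham arrays, with a difference of 2.23 (adjusted p = 0.103). The feedback inhibitor of cytokine signalling Socs3 had 533, 281 and 782 in the injury arrays against 113 and 122 in the sham arrays. Its injured rats all exceeded the sham rats, yet the standard error was large (2.06 ± 1.03, adjusted p = 1). The prostaglandin synthase gene Ptgs2 (1.34) and the transcription factor gene Cebpb (1.75) did not overlap, and Stat3 (0.04) did. The shared receptor subunit gene Il6st was below both sham arrays (-1.11).

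Interferon response genes held 1 call of 11 (Ifitm3), with 7 above both sham arrays in every injury array (63.6%) and 0 below. The median was 0.40, which was 0.26 without injury replicate 3 and 0.22 with probe sets averaged per gene. Gbp2 had 1.52, whereas Mx1 (-0.11), Irf7 (-0.48) and Mx2 (-0.63) overlapped. Irgm2 is not in that list. Of 18 antigen presentation genes, 0 were called, 6 were above (33.3%) and 1 was below (5.56%) both sham arrays. The list median was 0.13, and 0.04 with no filter. It ran from 0.02 without sham replicate 1 to 0.21 without injury replicate 2 and 0.23 without sham replicate 2. The lowest difference was -0.76 (Psme1). The class II chaperone gene RT1-DMb had 1181, 1286 and 969 in the injury arrays against 296 and 416 in the sham arrays, a difference of 1.70 with adjusted p = 0.0937. Complement genes had 0 calls of 12, with 3 above both sham arrays (25%) and 0 below. Their median was 0.20, which was 0.07 without injury replicate 1 and 0.02 without sham replicate 2. The central component gene C3 overlapped at 0.08, and a dimmer C3 probe set was above both sham arrays at 1.32.

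Heat shock proteins and chaperones were mostly higher. Hspa1a was the 1 call of 18 tested, 11 members were above both sham arrays in every injury array (61.1%) and 0 below, with a median of 0.80, which was 0.47 without injury replicate 1. Summed intensity was 60354 to 107331 in the injury arrays and 53184 to 53897 in the sham arrays. The HSP110 gene Hsph1 had 11153, 3109.5 and 4731 in the injury arrays against 2341 and 2389 in the sham arrays, with a difference of 1.21 (adjusted p = 0.222). As with Hspa1a, injury replicate 1 was the highest and replicate 2 the lowest. Hspa2 (1.72), the endoplasmic reticulum chaperone gene Hspa5 (0.96), the HSP40 genes Dnajb1 (0.92) and Dnaja1 (0.78), and the mitochondrial chaperonin genes Hspd1 (0.82) and Hspe1 (0.78) did not overlap. The constitutive Hsp90ab1 (-0.19) and the heat shock factor gene Hsf1 (-0.21) overlapped.

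Oxidative stress, metallothionein and iron genes had 1 call of 23 (Hmox1). In every injury array 7 were above both sham arrays (30.4%) and 1 was below (4.35%). Their median was 0.20 (0.08 with probe sets averaged per gene). The glutathione synthesis genes Gclc (1.61) and Gclm (1.32) were dim, and Gclm overlapped. Superoxide dismutase genes were near the sham level, with Sod1 at 0.16 and Sod2 at 0.43.

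Adhesion molecules, matrix proteases and plasminogen genes held 2 calls of 23 (Cd44 and Timp1, both also in the reactive astrocyte list). Of the 23, 10 were above (43.5%) and 2 below (8.70%) both sham arrays, with a median of 0.11. That median was 0.23 without injury replicate 1, 0.27 without sham replicate 1 and 0.27 without sham replicate 2. The membrane-bound collagenase gene Mmp14 was above both sham arrays, with 1304, 771 and 1045 in the injury arrays against 405 and 639 in the sham arrays. The gelatinase gene Mmp9 had 393, 117 and 681 in the injury arrays against 74.3 and 228 in the sham arrays and thus overlapped. The adhesion genes Icam1 (0.36) and Vcam1 (-0.58) lay on opposite sides of 0. Fibroblast, meningeal and matrix genes had 0 calls of 20, 9 above (45%) and 4 below (20%) both sham arrays, with fibronectin (Fn1) at 1.58 (adjusted p = 0.126). Sparc had a difference of -2.28 in which injury replicate 3 stood apart, with 12855, 7141 and 118 in the injury arrays against 8205 and 14124 in the sham arrays. Annexins and S100 proteins had 1 call of 13 (S100a8), 7 above (53.8%) and 2 below (15.4%) both sham arrays. Anxa2 was at 1.51 (adjusted p = 0.103) and S100a4 at 1.72. Endothelial and pericyte markers had 0 calls of 19, with 6 above (31.6%) and 1 below (5.26%) both sham arrays. Of the 19, 11 had a positive difference. The list median was 0.12, which was 0.30 without injury replicate 3, 0.04 without sham replicate 1 and 0.30 without sham replicate 2. Differences ran from -0.50 for Nos3 to 1.34 for the platelet and endothelial adhesion gene Pecam1.

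Immediate early and activity-regulated genes had 0 calls of 29, with 9 above both sham arrays in every injury array (31.0%), 2 below, and a median of 0.37, which was 0.60 without injury replicate 2 and 0.14 without injury replicate 3. The pentraxin gene Nptx2, which clusters AMPA receptors at synapses, had 2256, 1778 and 3912 in the injury arrays against 1161 and 1093 in the sham arrays, with a difference of 1.15 (adjusted p = 0.608). A dimmer Nptx2 probe set overlapped between the groups (-0.24). The AP-1 genes Jun (1.46), Fos (0.76) and Junb (0.75) were above both sham arrays. Arc (0.37), Egr1 (-0.21), Nr4a1 (0.15) and the neurotrophin gene Bdnf (-0.31) overlapped. The cell cycle inhibitor and p53 target gene Cdkn1a also overlapped, at 0.18.

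Neuronal genes were lower in many members, none of them called. Of 21 general and excitatory neuronal genes, 12 were below both sham arrays in every injury array (57.1%, beside 15.7% of all genes) and 0 above, with a median of -0.37. Their summed intensity was 75649 to 99869 in the injury arrays and 112849 to 116644 in the sham arrays. Thy1, a surface glycoprotein of projection neurons, had 9271, 14163 and 10251 in the injury arrays against 16259 and 15325 in the sham arrays. Injury replicate 2 came nearest to the sham rats, and the difference was -0.52 ± 0.25 (adjusted p = 0.994). The postsynaptic calmodulin-binding gene Nrgn (-0.59), the tau gene Mapt (-0.60), the neurofilament gene Nefm (-0.60) and the dendritic gene Map2 (-0.34) were below both sham arrays. Nefl (-0.54) and the kinase gene Camk2a (-1.16 ± 0.81) overlapped, as did the secretory granule genes Chgb (0.24) and Scg2 (0.14). Dimmer probe sets of Nefl (-1.28) and Camk2a (-1.18) were below both sham arrays in every injury array.

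Synaptic vesicle and SNARE genes had 13 of 24 below both sham arrays in every injury array (54.2%) and 0 above, with a median of -0.28. Snap25 had 3135, 4846 and 4334 in the injury arrays against 6203 and 5574 in the sham arrays, a difference of -0.54 that did not pass the test. The endocytosis genes Dnm1 (-0.61) and Amph (-0.63) and the fusion ATPase gene Nsf (-0.70) were below as well. Glutamate and GABA receptor subunits had 12 of 27 below both sham arrays (44.4%) and 1 above (Grik2), with a median of -0.35. Gabra4 (-1.90) and Gabrb1 (-1.65) were the lowest, while the obligatory NMDA receptor subunit gene Grin1 (0.24) and the AMPA subunit gene Gria1 (0.17) overlapped. Voltage-gated and potassium channel subunits had 10 of 29 below (34.5%), 1 above, and a median of -0.20, which was -0.13 without injury replicate 1 and -0.30 without injury replicate 2.

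Of 20 inhibitory neuron and neuropeptide genes tested, 0 were called and 7 were below both sham arrays in every injury array (35%) and 1 above, with a median of -0.18. The median turned to 0.007 without injury replicate 1 and was -0.37 without injury replicate 2, -0.08 without sham replicate 1 and -0.31 without sham replicate 2. Summed intensity was 29155 to 37716 in the injury arrays and 39384 to 39387 in the sham arrays, without overlap. The GABA synthesis genes Gad1 (0.08) and Gad2 (0.07), the parvalbumin gene Pvalb (-0.01), the calbindin gene Calb1 (-0.26) and the neuropeptide gene Npy (0.01) overlapped. Sst had 7128, 8486 and 6117 in the injury arrays against 9285 and 10407 in the sham arrays and was below in every one (-0.45). Trh, the thyrotropin-releasing hormone precursor, was the 1 member above both sham arrays (1.39). Oligodendrocyte and myelin markers had 0 calls of 14, 1 above both sham arrays (Pmp22) and a median of -0.35. The 3 below (Mog, Mbp and Mobp) were 21.4% of the list, beside 15.7% of all genes. Mbp had 13410.3, 13609 and 9653 in the injury arrays against 16476 and 20930 in the sham arrays, with a wide standard error (-0.62 ± 1.08).

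**Figure D4:**
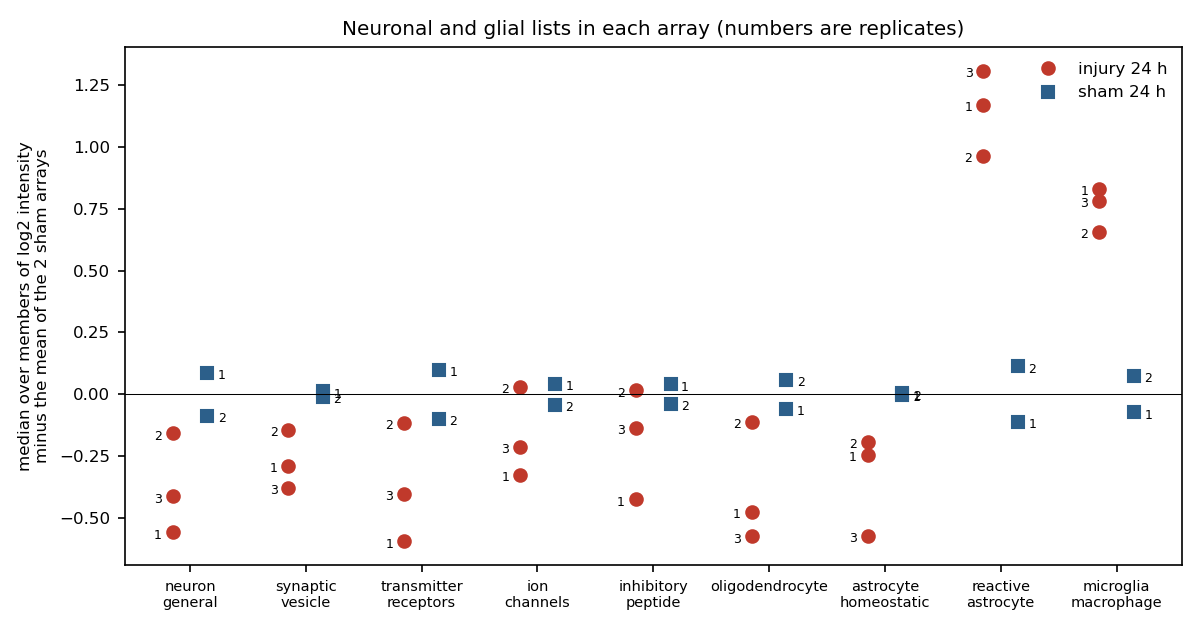
The median over list members of the log2 intensity minus the mean of the 2 sham arrays (y axis) is plotted per array for 9 neuronal and glial lists, with injury arrays as red circles and sham arrays as blue squares, numbered by replicate. The 3 injury arrays lie above the sham arrays for reactive astrocyte markers (0.96 to 1.31) and below them for general neuronal genes, where replicate 2 (-0.16) is nearest to the sham arrays and replicate 1 (-0.56) farthest.

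Per array, the median of the general neuronal list relative to the sham mean was -0.56, -0.16 and -0.41 in injury replicates 1, 2 and 3, against 0.09 and -0.09 in sham replicates 1 and 2. The reactive astrocyte list had 1.17, 0.96 and 1.31 in the injury arrays against -0.11 and 0.11 in the sham arrays. The microglia and macrophage list had 0.83, 0.66 and 0.78 in the injury arrays against -0.07 and 0.07 in the sham arrays. Injury replicate 2 was thus the nearest to sham in all 3 lists, while the astrocyte and microglial medians of all injured rats stayed well above the sham rats.

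A gene was represented by its brightest probe set, and some genes had dimmer ones with larger differences. When the 7162 probe sets were tested 1 by 1, an alternative added after seeing the data, 23 were called higher (0.321%) and 1 lower (0.014%, Prl8a5). Among them were dimmer probe sets of Ccl2 and Hspb1. For Ccl2 it had 2282, 1170 and 8558 in the injury arrays against 55.3 and 161 in the sham arrays (4.91, adjusted p = 0.00126). For Hspb1 it had 6403, 3211 and 4928 in the injury arrays against 523 and 565 in the sham arrays (3.10, adjusted p = 0.000979). Both rose by these probe sets, with adjusted p up to 0.203 for Ccl2 and 0.0573 for Hspb1 when 1 array was left out, although the brightest probe set of neither gene was called, and another Hspb1 probe set overlapped (0.20). Further genes called in this way were the cAMP-responsive modulator gene Crem (2.78), the growth arrest gene Gadd45a (2.41), the collagen cross-linking enzyme gene Lox (3.23), the proteoglycan gene Sdc1 (3.45), the kinase gene Mapkapk3 (1.97) and the transcription factor gene Cebpd (2.66). The brightest probe sets of Crem, Sdc1 and Cebpd overlapped between the groups, and every call on these 6 genes was lost when some 1 array was left out.

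The injury difference at 24 h was set against those at 8 h and 72 h. Each was taken against its own sham arrays of the same time (3 injury and 2 sham arrays at each). Opposite-strand control signal overlapped between the groups at 24 h but not at these times. Its mean log2 intensity was 8.18 to 8.45 in the injury arrays and 6.47 and 7.72 in the sham arrays of 8 h. At 72 h it was 6.63, 8.04 and 8.07 in the injury arrays and 6.29 and 6.52 in the sham arrays. With this signal as a covariate, 0 genes (8 h) and 1 gene (72 h) were called, as without it. The change of the injury difference between 8 h and 24 h was called for 0 of 4091 genes (0%, 134 with unadjusted p under 0.05). Between 72 h and 24 h it was called for 1 gene (0.0244%, 204 with unadjusted p under 0.05), the cytidine deaminase gene Apobec1. Apobec1 had 54.5, 72.2 and 66.5 in the injury arrays of 24 h against 55.3 and 70.8 in the sham arrays of 24 h. At 72 h it had 493, 697 and 1027 in the injury arrays against 18.0 and 30.9, both under the floor, in the sham arrays. The difference of the log2 differences was -4.43 ± 0.74 (24 h minus 72 h, adjusted p = 0.00464), and the call was lost without sham replicate 2 of 24 h. For Spp1 the log2 difference was 4.67 at 8 h, 4.92 at 24 h and 6.94 at 72 h. For S100a8 it was 4.83, 3.98 and 1.57 at these times, for Lgals3 2.09, 2.55 and 4.76, and for Vim 0.08, 1.72 and 2.83. None of these 4 genes passed the test for a change between times.

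**Figure D5:**
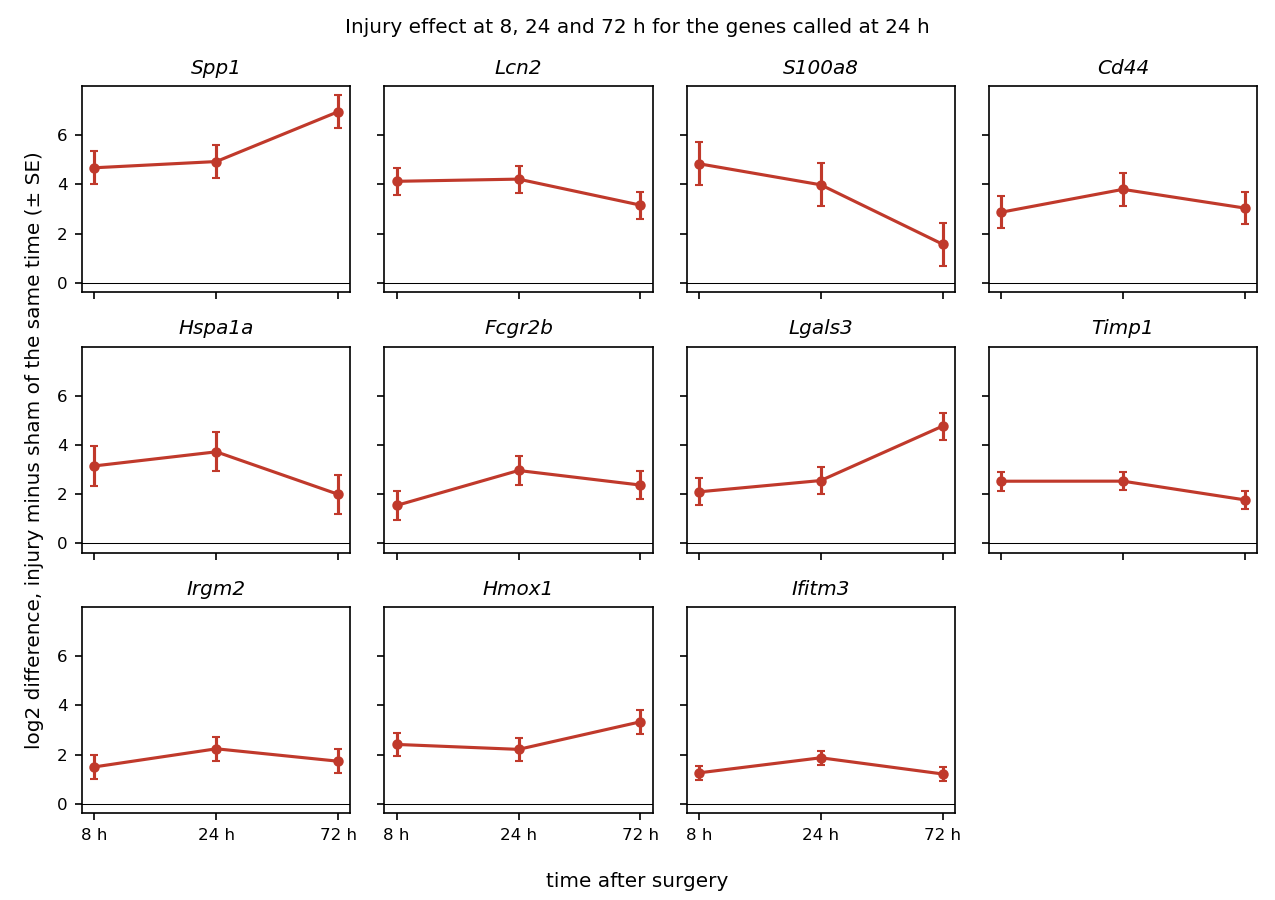
For each of the 11 genes called at 24 h, the log2 difference of injury minus sham of the same time (y axis, ± SE) is plotted at 8, 24 and 72 h after surgery (x axis, evenly spaced). Spp1 and Lgals3 are highest at 72 h (6.94 and 4.76) and S100a8 is highest at 8 h (4.83), though none of these changes between times passed the test.

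In the mouse arrays of 24 h, made after a controlled cortical impact and with 3 animals pooled per sample, 17% of 6355 genes were above both sham arrays in every injury array. Of the 11 rat genes, Cd44 (2.94), Fcgr2b (3.06), Timp1 (2.42), Hmox1 (2.30), Ifitm3 (2.18), S100a8 (3.10), Hspa1a (0.58) and Lgals3 (at least 4.29) were so in mouse. Lcn2 (0.23) and Irgm2 (0.18) overlapped between injury and sham in mouse, as did Vim (-0.03), and Spp1 was not analysed here in mouse. Species, injury model, array and pooling differ, and the difference between species was not tested.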

How the data were processed

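Per the labels, RNA of 1 rat cortex per sample was hybridised to a 1-colour expression array. The deposited values were 1 linear intensity per probe set and array for 8799 rat probe sets. The summary and scaling software is not given in the sources used here. With 2% trimmed from both ends, each rat array had a mean intensity of 800.6 to 801.2.

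Intensities were floored at the pooled 10th percentile (32.1) and taken as log2. Left out were 59 control probe sets and those not above the pooled 40th percentile (202) in at least 3 arrays, which left 7162. Apart from the controls, 7006 probe sets had 1 gene symbol, 308 several and 1426 none, and only those with 1 symbol were used. Symbols were updated through Entrez IDs to RefSeq GRCr8 for 6985 of the 7006. The probe set of highest mean stood for its gene (4091 genes).

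A group-mean model over all 39 rat arrays (26 residual degrees of freedom) was fitted in R 4.3.3 by limma 3.58.1, moderating the variances along an intensity trend, as group sizes of 3 and 2 give few degrees of freedom of their own. P-values were adjusted over all genes by Benjamini-Hochberg. Standard errors come from the fit over all 39 rat arrays, so they do not measure the spread at 24 h alone. The number of arrays limits the precision. Fold changes against a group wholly at the floor are lower bounds.

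The members and the 37 gene lists were chosen with earlier results of these data known. Genes are named by a rule that takes called genes with at least a 2-fold difference and no overlap, up to 12 in each direction, called list members, the 6 lower genes of smallest p, genes called between times and a fixed panel. Other list members given as values were chosen after their values were seen. Alternatives were quantile normalization, median centring, a floor at the pooled 25th percentile, no filter on dim probe sets, averaging of probe sets per gene, only the compared groups, the fit without 4 arrays, a replicate block, a control-signal covariate, array weights and leaving out each of the 5 arrays. Numbers were not taken as pairs. Deviations of injury and sham samples with the same number correlated at -0.11 and -0.04. This cannot decide on pairing, since the deviations of 2 sham arrays from their mean mirror each other. Figures were drawn with matplotlib 3.10.9.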

Additional observations from a re-analysis of the deposited data

Results flagged for a closer look

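The injury difference of Apobec1 differed between 24 h and 72 h, by -4.43 in log2 (24 h minus 72 h, limma, adjusted p = 0.00464). At 24 h the injury and sham arrays overlapped (0.03), and at 72 h the difference was 4.46. Opposite-strand control signal was higher in every injury array than in both sham arrays of 72 h. The call between times was lost without sham replicate 2 of 24 h.

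Among probe sets that carry no single gene symbol and were therefore outside the gene test, 2 of 1333 were called higher in injured cortex when probe sets were tested 1 by 1, an alternative added after seeing the data. Probe set AF028784mRNA#2_at, with no gene symbol in the annotation used, had 1769, 1401 and 1301 in the injury arrays against 118 and 177 in the sham arrays (log2 difference 3.36, adjusted p = 0.00686). Probe set rc_AA892333_at, with several symbols, had 3887, 3626 and 4831 in the injury arrays against 1247 and 1293 in the sham arrays (log2 difference 1.68, adjusted p = 0.0412). Every injury array was above both sham arrays for both.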

How the results depend on the processing

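The count of 11 called genes at 24 h was 23 after quantile normalization (22 higher, 1 lower, 10 shared with the 11). It was 34 without the 4 rat arrays that stood apart (30 higher, 4 lower). A floor at the pooled 25th percentile gave 16 (12 higher, 4 lower). With array quality weights the count was 185 (115 higher, 70 lower, all 11 shared). With probe sets tested 1 by 1, chosen after seeing the data, it was 24. Leaving out 1 array gave 5 to 20 genes. With only the compared groups the count at 24 h stayed at 11, but 7 of these were shared with the main fit. For the change between 8 h and 24 h the count of 0 became 1 with only the compared groups. For the change between 72 h and 24 h the count of 1 became 0 with only the compared groups, 187 with array quality weights, and 0 to 1 without any 1 array. The cause was not tested. The replicate block, whose numbers were not taken as pairs, gave 15 genes at 24 h, which kept within 1.5 times of the count without it. In 523 of 606 single-gene values over all alternatives, direction and side of the threshold stayed as reported. Signs turned for Prl8a5 with no filter (0.195, another probe set then standing for the gene), for Apobec1 at 24 h with quantile normalization (-0.0107) and with the replicate block (-0.0531), and for Npy with quantile normalization (-0.0114). Without any 1 array the difference ran from -0.148 to 0.210 for Apobec1, from -0.208 to 0.373 for C3, from -0.328 to 0.678 for Cdkn1a, from -0.0826 to 0.115 for Npy and from -0.256 to 0.300 for Slc1a2. None of these was called. Genes near background, such as S100a8 in sham cortex, have only a bound.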

Other observations

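No gene of protein synthesis or of the respiratory chain was called. Of 38 cytosolic ribosomal protein genes, 16 were above both sham arrays in every injury array (42.1%, beside 16.4% of all genes) and 1 below, and 32 had a positive difference, with a median of 0.20 (0.10 without injury replicate 1, 0.14 without sham replicate 1) and Rps6 at 0.61. Their summed intensity was 240499 to 296431 in the injury arrays and 225529 to 241174 in the sham arrays, which overlapped. Of 28 oxidative phosphorylation subunit genes, 1 was above (3.57%) and 2 below (7.14%) both sham arrays and 6 had a positive difference. The median was -0.10, with -0.02 without sham replicate 1, -0.05 without injury replicate 1 and -0.16 without injury replicate 3 or sham replicate 2. Their summed intensity was 97710.3 to 105125 in the injury arrays and 116678 to 117226 in the sham arrays, without overlap. Glycolysis and hypoxia response genes (19 tested, median -0.006), growth factors and their receptors (37 tested, median -0.005) and cell cycle genes (20 tested, median 0.06) had medians near 0. The first 2 of these medians changed sign under some alternatives, and the cell cycle median was up to 0.23 without sham replicate 1. Summed intensity of the glycolysis and hypoxia list was 87832 to 96951 in the injury arrays and 101926 to 102132 in the sham arrays, without overlap. The sums of the growth factor and cell cycle lists overlapped between the groups.

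Red blood cell markers had 0 calls of 5, and 3 had a positive difference. In every injury array 2 were above both sham arrays (40%, beside 16.4% of all genes) and 1 was below (20%, beside 15.7%). The lowest difference was -0.12 (Slc14a1). Summed intensity was 17447 to 23951 in the injury arrays and 16647 to 16721 in the sham arrays. The heme synthesis gene Alas2, which is specific to red cell precursors, was above both sham arrays at 1.03, and the globin gene Hbb at 0.34. The lipid droplet gene Plin2 had 1358, 275 and 1329 in the injury arrays against 153 and 156 in the sham arrays (2.36, adjusted p = 0.126), with injury replicate 2 far below the other injured rats.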
